A study of Mus musculus with 8 samples.

Results

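The arrays compared here are the 4 of secondary neurospheres, out of 8 in the series, split by the replicate number in the sample title: replicate 2 (an NFIA array and a control array) against replicate 1 (an NFIA array and a control array). Neurospheres are free-floating balls of neural stem and progenitor cells, grown here from mouse embryonic stem cells. Cells overexpressing the transcription factor NFIA and control cells grew together in mixed cultures and were separated by fluorescence-activated cell sorting before RNA was taken. Secondary neurospheres are passage 1, sampled on day 12 of culture after embryoid bodies, and primary neurospheres are passage 0, sampled on day 6. Both passages have 2 NFIA and 2 control arrays. Since both cell types came out of mixed cultures, a gene that differs between replicates in NFIA cells and in control cells alike differs between cultures, if equal numbers mark a shared culture. The labels do not say that they do, nor that replicate 1 of the primary neurospheres was passaged into replicate 1 of the secondary ones, and how NFIA expression was driven is not given in the sources used here.

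Neural progenitors of the developing brain and spinal cord first make neurons and later astrocytes and oligodendrocytes. SOX10 and OLIG2 are transcription factors of the oligodendrocyte lineage, in which precursors that carry the receptor PDGFRA mature into cells that wrap axons in myelin. HOX, ZIC and DLX factors mark position along the axes of the neural tube, and ASCL, NEUROG and INSM factors drive progenitors into neuronal differentiation. In bulk RNA, fewer cells of a type and less RNA per cell cannot be told apart.

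Signal quality did not separate the replicates in one direction. Spots well above background made up 51% of the NFIA array and 51.1% of the control array of replicate 2, against 53% and 45.4% in replicate 1, and no spot was saturated. The number of arrays limits the precision. Of the markers of neural progenitors 5 of 5 and of neurons 4 of 4 were well above background on all 4 arrays, while 0 of 4 markers of blood and endothelium were on any. Of the 4 astrocyte markers, 4 and 4 were detected in the NFIA and control arrays of replicate 2, against 4 and 2 in replicate 1. The 3 markers of pluripotent cells and 3 of the 4 of mesenchyme were also well above background on all 4 arrays. Of the 4 endoderm markers, Foxa2 was on all 4 arrays, Sox17 only on the control array of replicate 2, and Afp and Gata4 on none. Source names conflict with titles: the secondary NFIA array of replicate 2 carries a WT source name, and both control arrays carry one of the NFIA line, so groups follow the titles. In addition, 7 of 8 scanner files sit with other samples than the matching column of the authors' value table, and values follow that table. On the slide, control 1, control 2, NFIA 1 and NFIA 2 lie in columns 1 to 4, so within a cell type replicate number and slide position cannot be told apart.

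In the secondary neurospheres, the replicate number went with nearly as much of the spread as cell type did. Of the total spread of the 4 arrays over 13168 genes, 41.1% went with the replicate number, 44.6% with cell type and 14.3% with neither, and for 53.4% of genes the replicate number carried more of it than cell type did. Across genes, which are not independent replicates, the difference of the NFIA pair correlated with that of the control pair at r = 0.496. The plot of both pairs shows this spread. Between replicates, the control pair differed more than the NFIA pair. The SD of the difference over genes was 0.785 in NFIA and 0.979 in control cells, against 0.506 and 0.537 in primary neurospheres. Each SD describes 1 pair of arrays. Of the 4 arrays, the control array of replicate 1 had the smallest share of spots well above background (45.4%). Each difference is replicate 2 minus replicate 1 on a log2 scale, and each value below is log2 relative to the median of the gene's probe over all 8 arrays.

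**Figure D1:**
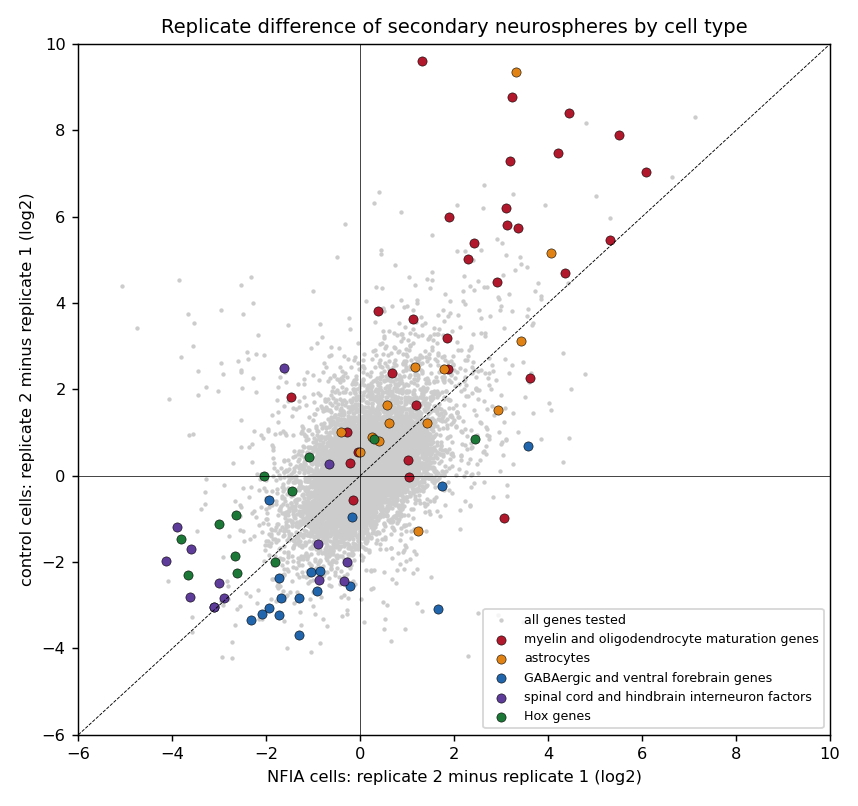
Each point is a gene, with the difference of replicate 2 minus replicate 1 (log2) in NFIA cells on the horizontal axis and in control cells on the vertical axis of secondary neurospheres; the dashed line marks equal differences. Myelin genes lie to the upper right, mostly above the line (larger in control cells for 27 of 31), and GABAergic and interneuron genes mostly to the lower left.

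By limma, with Benjamini-Hochberg adjustment over all genes and a threshold of 0.05 (two-sided), 269 genes passed (2.04%): 171 were higher in replicate 2 (1.3%) and 98 lower (0.744%). All 269 had the same sign in both cell types, and the difference was larger in the control pair for 186 of them, against 55.6% of all genes. The test divides by an error that takes in the gap between the NFIA and control differences of both passages and the error of other genes. Agreement between cell types is thus part of what it selects, and the same sign in 269 of 269 is no added evidence. Among the higher genes, 39 were not well above background on either array of replicate 1, and among the lower ones 13 on neither array of replicate 2. Such genes passed the filter on dim probes through the replicate in which they were high, and for them only a lower bound of the fold is given ("at least"). Where 1 array of a pair of replicates was dim, the difference is given as measured and includes dim signal: among the genes named below this holds for the control array of replicate 1 in Aqp4, Atf3, Egr4, Enkur, Mag, Plxnb3, S100b and Srpk3, and for the NFIA array of replicate 2 in Isl1, Peg10 and Pmaip1. The count rests on few arrays: it was 1492 without either NFIA array, which leaves only the control pair, 196 without either control array, and 0 without any one primary array. With the scanner files as they are attached it was 0, and 9 of the 240 genes tested there kept their sign.

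**Figure D2:**
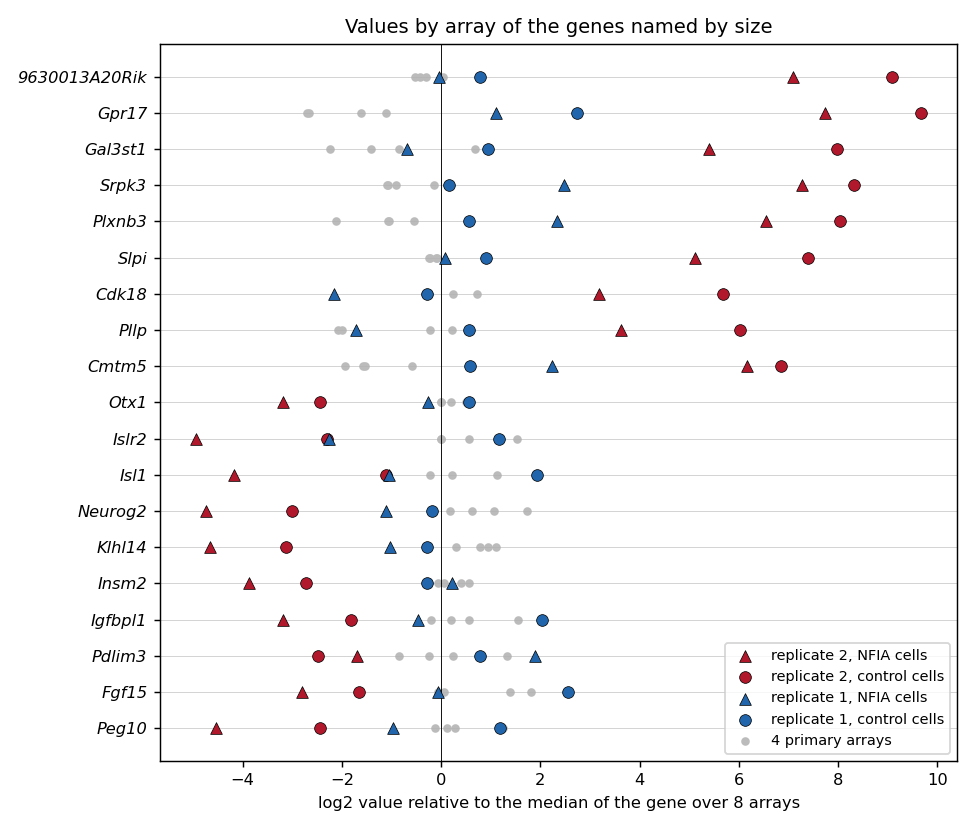
Log2 values, relative to the median of the gene over 8 arrays, of 9 of the 10 genes with the largest and of the 10 with the lowest differences among those that passed; red marks replicate 2 and blue replicate 1 of secondary neurospheres, triangles NFIA and circles control cells, grey points the 4 primary arrays. Both red points lie to the right of both blue points in the upper 9 genes, and to the left of both in the lower 10, with the narrowest gaps in Islr2 and Isl1.

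Genes of the oligodendrocyte lineage were among those that rose in replicate 2. Gpr17, the gene of a receptor of committed oligodendrocyte precursors, had values of 7.74 and 9.67 in the NFIA and control arrays of replicate 2, against 1.1 and 2.75 in replicate 1. The groups did not overlap, and the difference was 6.78 ± 0.22 (SE; adjusted p = 0.00965), with processed signals of 14261 and 71602 against 284 and 438. Sox10, the gene of the lineage's transcription factor, had values of 4.47 and 5.26, against 0.75 and 0.98 (difference 3.99 ± 0.24, adjusted p = 0.0196). Pdgfra, the gene of the PDGF receptor of precursors, rose by nearly the same amount in both cell types, 2.24 in NFIA and 2.28 in control cells (adjusted p = 0.0301). Olig2 had a difference of 1.76 ± 0.28 and did not pass (adjusted p = 0.0586). Of the 9 genes of an oligodendrocyte lineage list 4 rose (1.3% of all genes did). All 9 had positive differences, against 6785 of all 13168 genes, and the median was 1.76 against 0.02 over all genes tested. Of 19 oligodendrocyte precursor genes, which again include Gpr17, Sox10 and Pdgfra, all were measured, 7 rose and 1 fell. Their median difference was 1.71. Those that rose include Bcan, which encodes the matrix proteoglycan brevican (2.45 ± 0.26), Tnr, which encodes tenascin-R (3.53 ± 0.42), and C1ql1, a gene of a secreted C1q-like protein (at least 5.25-fold, adjusted p = 0.0407). A second probe of Bcan gave 0.87. Cacng4, which encodes an auxiliary subunit of glutamate receptors, fell (-1.89 ± 0.18, adjusted p = 0.0346).

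Genes of myelin and of maturing oligodendrocytes followed, with the larger difference in control cells for 27 of the 31 measured. Opalin, named below, had the larger difference in NFIA cells. Gal3st1, which encodes the sulfotransferase that makes sulfatide, a myelin lipid, had values of 5.39 and 7.97 in the NFIA and control arrays of replicate 2, against -0.69 and 0.94 in replicate 1, and was at least 58.3-fold higher (adjusted p = 0.0332). Pllp, the gene of plasmolipin, a membrane protein of myelin, was at least 13.8-fold higher (adjusted p = 0.00965). The arrays of the 2 replicates did not overlap for either gene. Omg, the gene of oligodendrocyte myelin glycoprotein, had values of 5.10 and 6.84, against 0.74 and 2.16 (difference 4.52 ± 0.19). Enpp6, which encodes a choline phosphodiesterase of newly forming oligodendrocytes, was at least 4.71-fold higher, Gjc3, which encodes a connexin, at least 3.2-fold, and Opalin, a gene of an oligodendrocyte membrane glycoprotein, at least 1.53-fold (adjusted p from 0.04 to 0.0489).

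Over the whole myelin list, 9 of 31 measured genes (of 34) rose, against 1.3% of all genes, and 0 fell. The median difference was 2.30 in NFIA cells and 4.48 in control cells, 24 of 31 were positive in both cell types against 34.7% of all genes, and 8 of 31 were above background in replicate 2 alone, against 138 of all 13168 genes. Those 8 passed the filter on dim probes only through replicate 2, which fixes their sign in part. The same genes had a median of -0.06 between the primary replicates. Cell types differed widely for Mag, which encodes myelin-associated glycoprotein: its values were 5.07 and 9.40 in the NFIA and control arrays of replicate 2, against 3.75 and -0.20 in replicate 1, so that the difference of 5.46 ± 1.90 had a wide error and did not pass (adjusted p = 0.153). Fa2h, which encodes the hydroxylase of myelin sphingolipids, was at least 33.2-fold higher and did not pass (adjusted p = 0.052). Mbp, the gene of myelin basic protein, gave unlike readings by probe: its brightest probe differed by 0.25, and its other probes by 6.44 and 0.56. The list of myelin genes, like those of precursor, GABAergic, interneuron and ZIC genes below, was written after values had been seen, so its counts are a description.

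Other genes among the 10 highest encode kinases, a receptor, membrane proteins and a protease inhibitor, and one transcript is non-coding. Cdk18, a gene of a cyclin-dependent kinase, had values of 3.17 and 5.68 in the NFIA and control arrays of replicate 2, against -2.15 and -0.29 in replicate 1 (difference 5.65 ± 0.24, adjusted p = 0.00965). Plxnb3, which encodes a semaphorin receptor, differed by 5.84 ± 0.78, Srpk3, which encodes a kinase of splicing factors, by 6.48 ± 0.81, and Cmtm5, a gene of a MARVEL-domain membrane protein, by 5.10 ± 0.58. The control array of replicate 1 was dim for Plxnb3 and Srpk3. Slpi, which encodes a secreted inhibitor of leukocyte proteases, was at least 10.9-fold higher, and 9630013A20Rik, a non-coding transcript, at least 41.2-fold. In the plot by array, the 4 primary arrays lie below both replicate 2 arrays in each of the higher genes shown.

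Promoters of the 10 highest genes were searched for ACAAAG, the core of the motif bound by SOX factors, on both strands (the reverse complement is CTTTGT), since Sox10 rose with them. RefSeq promoters were available for 8 of the 10, and 2 of them, Plxnb3 and Cdk18, held the motif within the 250 bases before the start. The share was 14.7% of 170 promoters of the genes that rose and 10.3% of 97 promoters of those that fell, against 12.6% of 13500 promoters of all genes tested and 16.5% of all promoters. The shares among genes that rose and fell lie on either side of that of all genes tested. Both sequences are shown because they are the only matches among the highest genes, written 5′ to 3′ on the strand of the gene (GRCm38.p6), with the motif in capitals, 162 bases before the start of Plxnb3 (chrX:73756853-73757102, plus strand) and 54 before that of Cdk18 (chr1:132139686-132139935, minus strand).
Plxnb3: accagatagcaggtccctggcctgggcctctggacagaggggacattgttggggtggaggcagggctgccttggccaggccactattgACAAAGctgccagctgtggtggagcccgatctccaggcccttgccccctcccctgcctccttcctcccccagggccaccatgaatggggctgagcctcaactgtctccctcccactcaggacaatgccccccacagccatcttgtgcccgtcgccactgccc
Cdk18: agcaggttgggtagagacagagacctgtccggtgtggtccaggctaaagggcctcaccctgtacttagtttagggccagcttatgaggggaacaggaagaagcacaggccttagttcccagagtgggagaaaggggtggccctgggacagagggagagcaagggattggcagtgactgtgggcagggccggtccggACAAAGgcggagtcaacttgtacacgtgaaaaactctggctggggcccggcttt
A match describes these letters and is not evidence of binding.

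Some astrocyte genes also rose in replicate 2. Aqp4, which encodes the water channel of astrocyte endfeet, had values of 4.90 and 2.91 in the NFIA and control arrays of replicate 2, against 0.83 and -2.26 in replicate 1 (difference 4.62 ± 0.35, adjusted p = 0.0301), and a second probe gave 3.77. Apoe, which encodes the main lipid carrier of the brain, stood at 4.64 and 1.70, against 1.22 and -1.42 (difference 3.27 ± 0.18, adjusted p = 0.0171). In both genes the control array of replicate 1 was lowest and the NFIA array of replicate 2 highest. Clu, the gene of the chaperone clusterin, rose by 2.13 ± 0.27, and Gja1, the gene of the gap junction protein connexin 43, by 1.33 ± 0.18. Those 4 of 14 measured genes rose (1.3% of all genes did) and 0 fell, with a median of 1.22 against 0.02 over all genes. In both cell types 11 of 14 were positive, against 34.7% of all genes. S100b, a calcium-binding protein gene of astrocytes and oligodendrocyte precursors, differed by 3.31 in NFIA and 9.35 in control cells and did not pass (adjusted p = 0.0846). Its signal on the control array of replicate 1 was not well above background, so the control difference is measured against dim signal.

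In a list of immediate early genes, which are transcribed within minutes of a stimulus, 3 rose in secondary replicate 2. Egr4, an immediate early gene outside that list, passed as well. Fos had values of 2.99 and 1.41 in the NFIA and control arrays of replicate 2, against 1.19 and -1.27 in replicate 1 (difference 2.24 ± 0.31, adjusted p = 0.0489). Fosb, a second member of the AP-1 family, stood at 2.22 and 1.43, against 0.45 and -0.78 (difference 1.99 ± 0.21, adjusted p = 0.0397). Ier3 passed as well (1.55 ± 0.17), whereas Atf3 (1.73 ± 0.26, adjusted p = 0.0544) and Egr2 (2.25 ± 0.60, adjusted p = 0.105) did not. Of 11 measured, 3 rose (1.3% of all genes did) and 0 fell. All 11 differences were positive, against 6785 of all 13168 genes, and the median was 1.46. In the primary neurospheres the median was -1.04, with 10 of 11 negative (7550 of all genes were) and 0 called. For Fosb the 2 contrasts differed by 4.14 (adjusted p = 0.0492 for that difference), while for Fos the adjusted p of the difference was 0.0759.

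**Figure D3:**
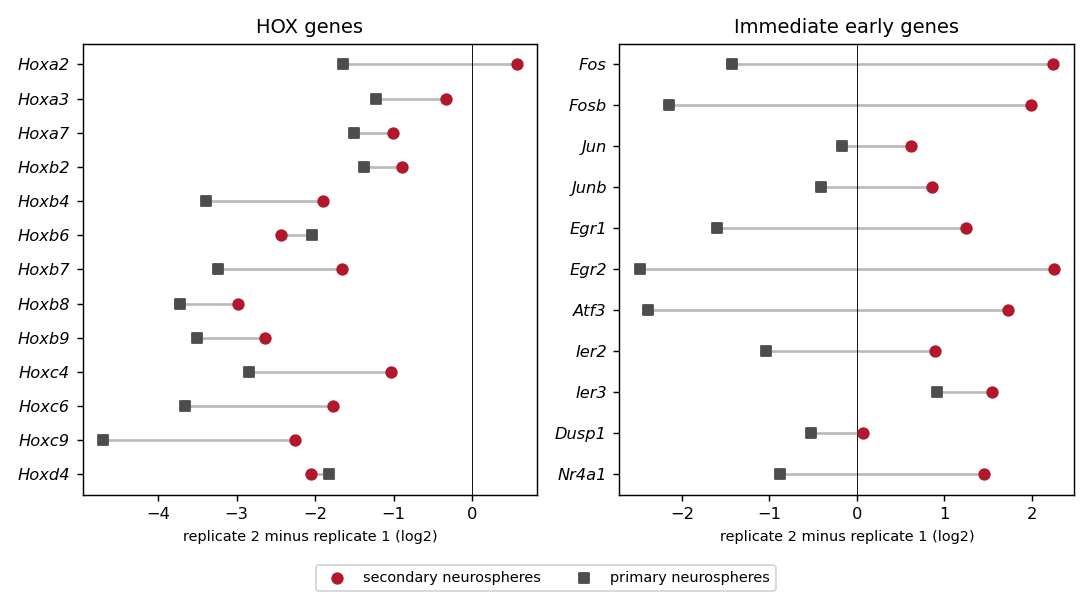
Difference of replicate 2 minus replicate 1 (log2, mean of NFIA and control cells) of 13 HOX genes (left) and 11 immediate early genes (right), red circles for secondary and dark squares for primary neurospheres. HOX differences are negative in both passages for 12 of these 13 genes, while 10 of 11 immediate early genes lie above 0 in secondary and below 0 in primary neurospheres.

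Few genes of the stress and metabolic lists passed (1.3% of all genes rose), while most members of several of these lists had positive differences. Bnip3, a hypoxia-induced gene of mitochondrial turnover, rose by 1.80 ± 0.21 (adjusted p = 0.0407). All 12 hypoxia and glycolysis genes measured had positive differences, against 6785 of all 13168 genes (median 0.95, 1 called). Of them, 8 were positive in both cell types, against 34.7% of all genes. Between the primary replicates 11 of the 12 were positive as well (5618 of all genes were), with a median of 0.65. Mt1, which encodes a metal-binding metallothionein, rose by 2.14 ± 0.20, and Trib3, a gene of the integrated stress response, by 1.32 ± 0.17, each the one called of its list. Of the 12 ribosomal protein genes none passed, though 12 had positive differences in both cell types, against 34.7% of all genes (median 0.58). Of the 12 mitochondrial and respiratory genes none passed, though 10 were positive in both cell types (median 0.52).

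Several genes of the ventral and rostral forebrain fell in replicate 2. Dlx2, a homeobox gene of GABAergic progenitors, had values of -2.81 and -1.36 in the NFIA and control arrays of replicate 2, against -0.47 and 1.99 in replicate 1 (difference -2.84 ± 0.32, adjusted p = 0.04). Dlx1, its neighbour and partner, differed by -2.51 ± 0.32, and the antisense transcript Dlx6os1, from the region of Dlx5 and Dlx6, by -2.83 ± 0.21. All 3 were lowest in NFIA cells of replicate 2 and highest in control cells of replicate 1. Slc32a1, which encodes the vesicular GABA transporter, differed by -2.26 ± 0.31, and Pnoc, the gene of the neuropeptide precursor prepronociceptin, by -2.64 ± 0.31. Otx1, a homeobox gene of the forebrain and midbrain, was at least 2.03-fold lower (adjusted p = 0.0196). Of 18 GABAergic and ventral forebrain genes measured (of 20), 5 fell (0.744% of all genes did) and 0 rose. Their median was -1.92 (-1.30 in NFIA and -2.75 in control cells). Isl1, described below, is among those 5, and Dlx6os1 is not in the list. Of 10 forebrain patterning genes, 3 fell and 0 rose (median -1.90). Of these 10, 3 were well above background in replicate 1 alone, as was 1 of the 18 GABAergic genes, against 52 of all 13168 genes. Such genes passed the filter on dim probes only through replicate 1, which fixes their sign in part. Between the primary replicates the GABAergic list had a median of 0.95, of the opposite sign.

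Several factor genes of interneurons of the spinal cord and hindbrain fell, and the list had the larger median in NFIA cells. Isl1, a homeobox gene of motor neurons and sensory interneurons, had values of -4.16 and -1.11 in the NFIA and control arrays of replicate 2, against -1.05 and 1.93 in replicate 1. The pairs shifted by the same amount, -3.11 in NFIA and -3.04 in control cells (adjusted p = 0.0196), although the control array of replicate 2 lay just below the NFIA array of replicate 1. Lhx5, a LIM homeobox gene of dorsal interneurons, differed by -2.75 ± 0.23. Neurog2, a proneural factor gene, was at least 3.26-fold lower (adjusted p = 0.0323) and Olig3, a factor gene of dorsal progenitors, at least 1.76-fold lower (adjusted p = 0.0206). Of 13 such genes measured (of 21), 4 fell (0.744% of all genes did) and 0 rose. Their medians were -2.90 in NFIA and -1.99 in control cells. Isl1 is counted here and in the GABAergic list. Of the 13, 2 were well above background in replicate 1 alone (52 of all 13168 genes were), which fixes their sign in part.

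Of the ZIC genes, which encode zinc finger factors of the dorsal neural tube and cerebellum, 4 of 5 fell, against 0.744% of all genes. Zic4 had values of -2.99 and -1.40 in the NFIA and control arrays of replicate 2, against -0.36 and 1.68 in replicate 1 (difference -2.85 ± 0.21, adjusted p = 0.028), and its other probe gave -2.84. Zic2 differed by -2.69 ± 0.36 and Zic1 by -2.13 ± 0.26, and Zic5 was at least 2.41-fold lower. All 5 were negative in both cell types against 32.8% of all genes, and the median was -2.37. Of the 5, 1 was well above background in replicate 1 alone (52 of all 13168 genes were), which fixes its sign in part.

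Fewer of the general neuronal genes passed. Syt1, which encodes the calcium sensor of synaptic vesicles, had values of -0.71 and -0.68 in the NFIA and control arrays of replicate 2, against 1.03 and 1.68 in replicate 1 (difference -2.05 ± 0.22, adjusted p = 0.04). Ina, the gene of a neuronal intermediate filament, fell by 2.13 ± 0.27. These were 2 of 16 neuronal genes, while 0.744% of all genes fell. The list had a median of -0.93, and 11 of 16 were negative in both cell types, against 32.8% of all genes. The median level of the 4 neuron markers, on a log2 scale relative to the 75th percentile of the array, was 2.06 in NFIA and 3.80 in control cells of replicate 2, against 2.58 and 4.58 in replicate 1. Of 7 proneural factors 2 fell, against 0.744% of all genes, and 1 of the 7 was well above background in replicate 1 alone. Those that fell were Neurog2 and Insm1 (-1.99 ± 0.22), a zinc finger gene of neurogenic progenitors. Insm2, a relative of Insm1, was at least 7.09-fold lower. Islr2, which encodes an axonal leucine-rich repeat protein, differed by -3.06 ± 0.33, and Igfbpl1, which encodes a secreted protein of newborn neurons, by -3.29 ± 0.33.

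Growth and signalling genes that fell were few per list, and 0.744% of all genes fell. Peg10, an imprinted gene derived from a retrotransposon and active in placenta and embryo, had values of -4.54 and -2.43 in the NFIA and control arrays of replicate 2, against -0.96 and 1.18 in replicate 1 (difference -3.60 ± 0.33, adjusted p = 0.0332). Igf2, an imprinted growth factor gene, fell by 1.86 ± 0.18. All 13 imprinted genes measured were negative on average and 11 were in both cell types, against 32.8% of all genes (median -0.91), with those 2 called. Fgf15, the gene of a secreted FGF of the embryonic brain, differed by -3.48 ± 0.40, Lef1, which encodes a nuclear effector of Wnt signalling, by -2.14 ± 0.29, and the Notch target Heyl by -1.54 ± 0.21. Nes, which encodes the progenitor filament nestin, fell by nearly equal amounts, -1.55 in NFIA and -1.49 in control cells (adjusted p = 0.04), and was the one called of 14 stem cell genes. Pmaip1, a p53 target that promotes cell death, fell by 2.63 ± 0.24. Pdlim3, a gene of an actin-binding LIM protein, differed by -3.42 ± 0.22, and Klhl14, a gene of a Kelch protein, was at least 3.28-fold lower.

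**Figure D4:**
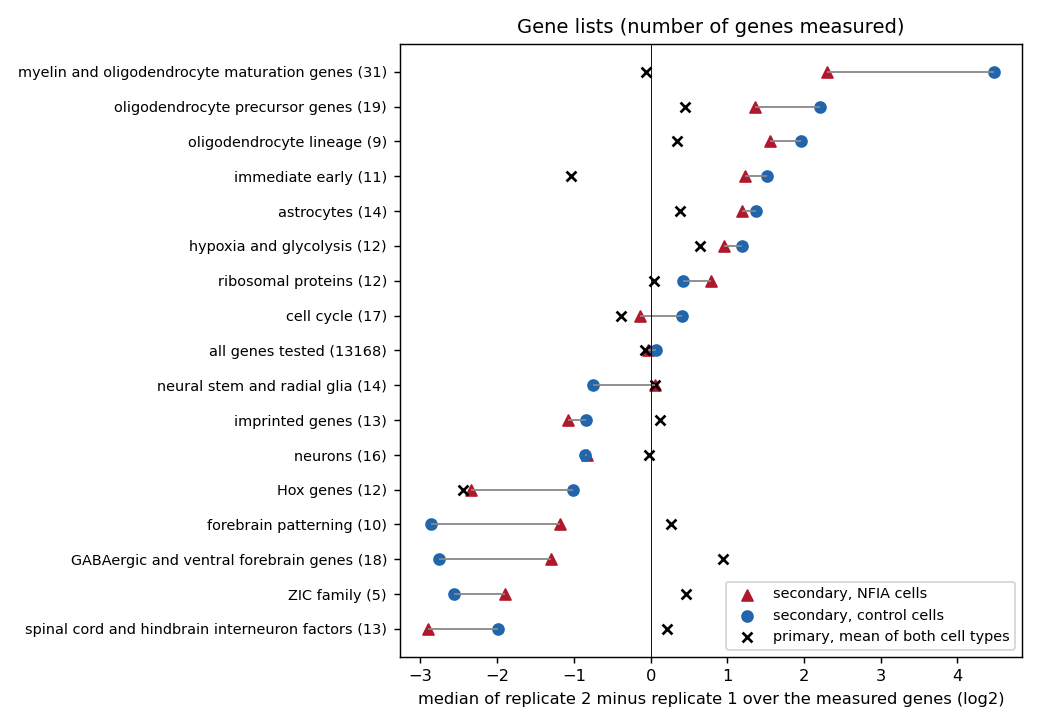
Median difference of replicate 2 minus replicate 1 (log2) for gene lists, with the number of measured genes in brackets; red triangles mark NFIA and blue circles control cells of secondary neurospheres, and crosses the mean of both cell types in primary neurospheres. The myelin list lies farthest to the right in both cell types, and the interneuron, ZIC, GABAergic, forebrain and Hox lists lie below -1 in both, while of the lists shown only the Hox list lies well below 0 in both passages.

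HOX genes, which set position along the spinal cord and hindbrain, had lower values in replicate 2 of both passages. Hoxb6 had values of 0.10 and -0.79 in the NFIA and control arrays of secondary replicate 2, against 2.73 and 1.46 in secondary replicate 1 (difference -2.44 ± 0.21, adjusted p = 0.0332). In primary neurospheres it stood at -1.88 and -2.21, against -0.05 and 0.05 (difference -2.05 ± 0.21, adjusted p = 0.265). Both replicate 2 arrays lay below both replicate 1 arrays in each passage. Hoxc9 stood at -0.57 and -0.52 against 2.08 and 1.34 in secondary (-2.26 ± 0.26, adjusted p = 0.0401), and at -4.04 and -3.93 against 0.52 and 0.91 in primary neurospheres (-4.70 ± 0.26, adjusted p = 0.102). These 2 of 12 measured genes of the list passed in secondary neurospheres, where 0.744% of all genes fell, and 0 in primary ones. Of all 14 HOX genes tested, 12 were negative in secondary, 14 in primary and 12 in both, including all 6 of the HOXB cluster. Of all 13168 genes, 6383 were negative in secondary and 7550 in primary neurospheres. Hoxa2 (0.57 ± 0.32) had a positive difference in secondary neurospheres and did not pass. No HOX gene passed the test of the difference between passages (smallest adjusted p = 0.0922). The primary and secondary contrasts share no array. On the slide, however, each primary array lies in the same column as the secondary array of its cell type and number. Replicate number and slide column therefore cannot be told apart within a cell type in either passage.

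Across 13168 genes, which are not independent, the replicate difference of secondary neurospheres correlated with that of primary ones at r = -0.096. In primary neurospheres 0 genes passed, with 1452 at an unadjusted p under 0.05, against 3710 in secondary ones. Of the 269 genes, 113 had the same sign in the primary contrast, against 5393 of all 13168, a like share. The difference between the contrasts passed for 20 genes (0.152%), 13 of them higher (0.0987%) and 7 lower (0.0532%) in the secondary contrast, and 19 of the 20 are among the 269. The rest of the 269 are not shown to differ between passages, and with 1 array per cell type and replicate the test has few degrees of freedom.

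Nfia, the overexpressed gene, did not pass the test between replicates. Its brightest probe had values of 0.87 and -0.15 in the NFIA and control arrays of replicate 2, against 0.92 and 0.21 in replicate 1 (difference -0.21 ± 0.19, adjusted p = 0.5), and a second probe gave -1.24. Of the 4 NFI family genes none passed. The Y-linked gene Ddx3y, not well above background on either NFIA array, followed cell type and not replicate, with -3.98 and 0.68 in the NFIA and control arrays of replicate 2, against -4.02 and 0.53 in replicate 1, and Eif2s3y did the same (-3.16 and 0.22 against -3.65 and 0.39). By these genes the secondary NFIA array of replicate 2, whose source name says WT, lay with the NFIA array of replicate 1. Genes of the cell cycle (17 measured, median 0.04), of pluripotency (11, median 0.35), of mesoderm and mesenchyme (14, median 0.50), of heat shock (7, median 0.15) and of cholesterol synthesis (14, median 0.27) had no member past the test. The same held for genes of endoderm (5, median 0.02), epithelium (8, median 0.54), midbrain and hindbrain (7, median 0.04), ventral neural tube (8, median -0.15), interferon response (4, median 0.84) and BMP and ID signalling (10, median 0.30). The count of NFIA against control calls in secondary neurospheres depended on the replicates: 156 genes (1.18%) passed with group means alone and 733 with the replicate number as a block.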

How the data were processed

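Sorted cells of 8 neurosphere samples were measured on one-colour Agilent arrays (8 arrays on 1 slide). Per the labels, RNA came from a column kit and was Cy3-labelled with a low-input kit. Per the file headers, the deposited scanner files hold the processed intensity of each spot after background subtraction by Feature Extraction 10.5.1.1, with other columns of flags for background, saturation and outliers, while the submitters' processing notes name 10.7.3.1. The authors' value table holds log2 values, which by comparison with the scanner files are scaled to the array's 75th percentile, with the median of every probe over 8 arrays set to 0. Each column matched 1 scanner file (r at least 0.9998, next best at most 0.335), and 7 columns matched a file attached to another sample.

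Probes well above background on at least 2 of the 4 secondary arrays were kept, 126 with outlier flags were left out, and the brightest probe stood for a gene, which gave 13168 genes, of which 3384 had several probes. Names came through the transcript accession on the array, matched to RefSeq (GRCm38.p6, also the source of the promoters). The values were fitted with limma 3.58.1 in R 4.3.3 over all 8 arrays, with 4 group means and a replicate term for each passage. The contrast is the secondary replicate term. Its error comes from how far the NFIA and control pairs disagree in both passages, and limma draws it toward that of other genes. In simulated data for this contrast with 13168 genes, each changed gene was shifted equally in NFIA and control cells of replicate 2. Of the genes changed by 2 (log2) 94% were called, and of those changed by 4 100%, with 13 false calls. Genes that differ unequally between the pairs were not simulated, so these shares do not cover them. P-values thus set the replicate difference against the disagreement between the NFIA and control pairs. The labels do not say that these arrays came from separate cultures. If equal numbers mark a shared culture, the NFIA and control arrays of a number are sorted fractions of the same culture. In that case the p-values hold no variation from culture to culture, and do not show that the differences would recur in other cultures.

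Genes named are the 10 highest and 10 lowest that passed with the same sign in both cell types, up to 4 with the smallest p per list, the 6 most opposite in each orientation, Nfia and Y-linked genes, and those whose contrast differed most between passages; other list members in the text were singled out after their values were seen. A few genes covered by this rule are not reported here. A fold given as "at least" sets the brighter pair's mean against the dimmer pair's, where a dim array counts at least as its faintest detected signal. The members and lists were chosen with earlier results of these data known. Alternatives tried were the source of the values, normalization, filters, choice of probes, model terms and leaving out each array. The files hold no mean signal, so the normexp alternative started from the median signal (offset 50).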

Additional observations from a re-analysis of the deposited data

Results flagged for a closer look

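For 20 genes the replicate difference of secondary neurospheres differed from that of primary neurospheres by the test of that difference, and in 15 of them the differences had opposite signs. Higher by the gap between contrasts (log2) were 9630013A20Rik (7.38), BC061237 (7.13), Gpr17 (6.55), Cdk18 (6.41), Egr4 (5.43), Pllp (5.14), Defa5 (4.19), Fosb (4.14), Bbox1 (3.65), Padi2 (3.6), Apoe (3.36), Bricd5 (3.23) and Pdgfra (3.12). Lower were Otx1 (-3.31), Crb1 (-3.32), Zic4 (-3.67), Isl1 (-3.71), Dlx6os1 (-4.47), Pdlim3 (-4.75) and Six6 (-5.51). 9630013A20Rik, Pllp and BC061237 were not well above background on either array of secondary replicate 1, nor was Otx1 on either of replicate 2, Egr4 and Bbox1 on the control array of replicate 1, Isl1 on the NFIA array of replicate 2 or Defa5 on either NFIA array, so these gaps rest in part on dim signal. Six6, an eye and hypothalamus factor gene, differed by -1.57 between secondary and by 3.94 between primary replicates, and was the one gene not called in the secondary contrast alone. Fosb and Egr4 are immediate early genes, and Gpr17, Pdgfra, Cdk18 and Pllp are among the oligodendrocyte genes or the 10 highest above.

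Of 13168 genes, 8886 had the same sign in both cell types. The 12 given here are the 6 in each orientation with the largest opposite differences between replicates. The gap between the NFIA and the control pair was not tested, since it is part of the error of the main test. It was 6.86 for Pabpc2, 7.53 for Olfr39, 6.14 for Nlrp4a, 5.67 for Zfhx2, 6.48 for Skint4 and 4.76 for Dlx6. It was -9.47 for Cyb5r2, -8.39 for Cyp4a30b, -7.42 for Tmprss11c, -7.07 for Drd1, -8.17 for Sh2d1a and -6.55 for Adam34. All 6 of the second set were well above background on the control array of replicate 2 and the NFIA array of replicate 1. None was so on the other secondary arrays. The rule that chose this set, with the filter on dim probes, favours that pattern, so the pattern is no added evidence. Those 2 arrays lie in the neighbouring slide columns 2 and 3. The part of slide position in this was not tested.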

How the results depend on the processing

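The 269 genes of the replicate contrast kept their sign under all alternatives in which they were tested, except with the scanner files as attached (9 of the 240 tested there) and with crossed replicate numbers (186 of 269). The count was 1044 with normexp background correction and quantile normalization, 410 with probes required above background on all 4 secondary arrays, and 44 when both arrays of any group sufficed. It was 0 with no filter on dim probes (smallest adjusted p 0.0645, 3397 genes at an unadjusted p under 0.05 by limma), 0 from the 4 secondary arrays only (0.0812, 2385 genes), 0 with no cell type term (0.0559, 2216 genes), 0 with the files as attached (0.994, 442 genes) and 0 with crossed numbers (0.507, 367 genes). Leaving out 1 array gave between 0 and 1492 genes. The fit without an array fits its partner exactly, so the NFIA arrays left out leave the control pair alone (1492 genes, 268 of the 269 among them), the control arrays left out leave the NFIA pair (196, with 98), and a primary array left out equals the secondary arrays alone. The lone pair is assumed to vary like the other groups. The difference between passages was called for 10 genes with the matched scanner signals, 0 with no filter, 0 with crossed numbers and between 0 and 1206 with 1 array left out. In the pairing check, the deviations of equally numbered arrays in NFIA and control cells correlated at r = 0.496 in secondary and 0.473 in primary neurospheres. With the replicate block, 733 genes passed for NFIA against control, against 156 without it and 0 with a crossed block. The share of spread with the replicate number was 35.3% with the files as attached and 37.1% with no filter. With matched scanner signals, quantile normalization, averaged probes and no primary replicate term the count of the contrast stayed within 1.5 times.

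Genes named in the text whose sign turned with the scanner files as attached had differences of Bcan -4.18, Aqp4 -3.87, Gal3st1 -3.66, Apoe -3.39, Clu -3.38, Padi2 -3.31, Egr4 -3.14, Gpr17 -2.99, Cmtm5 -2.94, Fos -2.85, Ier3 -2.34, Fosb -2.26, Mt1 -2.18, S100a6 -2.18, Cdk18 -1.95, Morn5 -1.94, Meig1 -1.88, Sox10 -1.79, Tnr -1.72, Bricd5 -1.57, Pdgfra -1.47, BC061237 -1.45, Gja1 -1.40, Omg -1.27, S100a13 -1.19, Cfap126 -1.13, Enkur -0.97, C1ql1 -0.70, Bnip3 -0.69, S100a16 -0.31, Trib3 -0.28, Igf2 0.45, Cacng4 0.55, Hoxb6 0.76, Crb1 0.82, Pdlim3 0.96, Nes 1.06, Syt1 1.11, Hoxc9 1.18, Lef1 1.48, Zic2 1.67, Zic5 1.71, Insm1 1.88, Insm2 1.88, Otx1 1.89, Ina 1.93, Zic1 1.94, Olig3 2.05, Pmaip1 2.09, Klhl14 2.28, Lhx5 2.74, Neurog2 2.74, Slc32a1 2.77, Peg10 2.77, Zic4 2.82, Igfbpl1 2.85, Pnoc 2.86, Dlx1 2.89, Dlx6os1 2.91, Dlx2 3.1, Islr2 3.36, Fgf15 3.37 and Isl1 3.75. With crossed numbers these were Opalin -0.68, Cfap126 -0.27, Mt1 -0.24, Meig1 -0.18, Apoe -0.15, C1ql1 -0.11, Gja1 -0.0985, Bbox1 -0.0676, Ier3 -0.0296, Trib3 -0.008, Olig3 0.0315, Nes 0.033, Isl1 0.0339, Cacng4 0.0507, Zic2 0.13, Pdlim3 0.15, Crb1 0.16, Hoxb6 0.19, Pmaip1 0.20, Lhx5 0.26, Klhl14 0.39, Hoxc9 0.40, Neurog2 0.41 and Insm2 0.82. With 1 array left out, differences spanned -3.56 to 3.0 for Adam34, -5.07 to 4.40 for Cyb5r2, -3.85 to 4.53 for Cyp4a30b, -3.54 to 3.53 for Drd1, -3.40 to 3.46 for Pabpc2, -4.75 to 3.42 for Sh2d1a and -3.17 to 2.50 for Zfhx2. For the attached files and the crossed numbers the arrays compared are other pairs by construction. The cause of the other changes was not tested.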

Other observations

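Genes of motile cilia were higher in secondary replicate 2. Dnah6, which encodes a dynein heavy chain of cilia, was at least 3.92-fold higher (adjusted p = 0.0332), and Meig1, a gene known from sperm flagella, had values of 4.49 and 3.06 in the NFIA and control arrays of replicate 2, against 1.41 and 0.35 in replicate 1 (difference 2.89 ± 0.22, adjusted p = 0.0301). Cfap126, Enkur and Morn5, which encode proteins of cilia or flagella, rose by 2.25 ± 0.24, 2.02 ± 0.23 and 1.89 ± 0.17. Of 25 genes, 20 were measured, 10 rose (1.3% of all genes did) and 0 fell, with a median of 1.59, against 0.02 over all genes. Foxj1, the factor that switches on motile cilia genes, had a difference of 0.28 ± 0.19 and did not pass. The list was drawn up after several of these genes had been seen among those called, so its count is a description only.

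Of 9 S100 genes, which encode small calcium-binding proteins, 3 rose, against 1.3% of all genes. They were S100a6 (2.28 ± 0.23), S100a13 (1.73 ± 0.23) and S100a16 (1.88 ± 0.22). All 9 had positive differences, against 6785 of all 13168 genes, with a median of 2.02. This list was also drawn up after values had been seen.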
